A study of Mus musculus with 14 samples.

Results

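Irradiated bone marrow was examined for microRNAs (miRNAs) on which 3 radioprotective drugs shared a direction. The comparison used the 5 bone marrow arrays at 8 Gy, out of 14 arrays in the series: 1 array each for amifostine, CBLB502 and nilestriol, against 2 vehicle arrays. Vehicle was phosphate-buffered saline (PBS), injected into the peritoneal cavity (i.p.) for 1 array and delivered to the stomach (i.g.) for the other. Each array held Cy3-labelled total RNA pooled from 3 male C57BL/6 mice aged 6 to 8 weeks, taken 12 h after gamma irradiation. Amifostine at 10 mg/kg and CBLB502 at 0.2 mg/kg were injected i.p. 0.5 h ahead of the 8 Gy dose, and nilestriol at 150 mg/kg was given i.g. 48 h ahead of it. Each arm had a 0 Gy counterpart of 1 array, taken from other mice. Bone marrow is a mixed tissue, so in these pools fewer cells of a type and less RNA per cell cannot be told apart.

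Amifostine is a thiol prodrug that scavenges radicals, CBLB502 is derived from bacterial flagellin and acts on Toll-like receptor 5, and nilestriol is a long-acting oestrogen. All are known to lessen blood-forming injury in mice when given before irradiation, through different routes. MiRNAs guide silencing complexes to messenger RNAs mainly through the seed, bases 2 to 8 of the mature strand, so miRNAs with the same seed can share targets. Many mouse miRNAs named miR-466, miR-467 and miR-669 come from a repeat cluster in an intron of Sfmbt2, a Polycomb gene, and relatives lie elsewhere in the genome.

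The miRNAs farthest above both vehicles were mostly ones with CA-repeat sequences, whose array probes read as TG repeats. The table of RefSeq mature sequences (GRCm38.p6) holds 302 of the 385 tested miRNAs. Repeat family here means the 9 miRNAs of the miR-466, miR-467 and miR-669 names that lay above both vehicles on every drug array, a set picked by that outcome. MiR-669n, which has such a name but lay below both vehicles, is in the table and is not shown. The table gave 3 members of the repeat family, and miR-574-3p, which also has alternating CA stretches. They are shown because they are among the miRNAs that stood farthest above both vehicles on every drug array, with the seed in capitals:
miR-466i-3p: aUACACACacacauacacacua
miR-466q: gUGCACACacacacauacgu
miR-467f: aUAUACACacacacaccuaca
miR-574-3p: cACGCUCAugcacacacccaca

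For the other 6 repeat-family members the longest probe of the deposited array files is given, 5′ to 3′ as DNA and complementary to the miRNA, with the first TGTGTGT in capitals:
miR-466f-3p: gtgtgtaTGTGTGTgtg
miR-466g: TGTGTGTgcatgtgtc
miR-466h-3p: gTGTGTGTgtgcgt
miR-669c-3p: tttactTGTGTGTgtgtg
miR-669f-3p: atacgTGTGTGTgtatgt
miR-669p-3p: atacgTGTGTGTgtgtatg

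The 4 seeds printed above all differ. The listed positions of the 3 sequenced repeat miRNAs do not lie in Sfmbt2. On GRCm38.p6, miR-466i-3p is at chr13:17747552-17747573 on the plus strand within the span of Cdk13, miR-466q at chr3:28419988-28420007 on the plus strand within that of Tnik, and miR-467f at chr11:69635419-69635439 on the minus strand within that of Fxr2. MiR-574-3p is at chr5:64970364-64970385 on the plus strand within the spans of Fam114a1 and Tlr6. The table gives gene spans and not exons.

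On the 5 arrays 332 to 380 of 1247 miRNAs were detected, and the median signal of the detected ones was 45.4 to 66.4 intensity units with 0 saturated spots. MiR-34a-5p, a p53 target induced by DNA damage, was set beside the irradiation labels. It was chosen as the miRNA with the largest rise with irradiation in these data, so its rise is a description and not an independent check. Its log2 scaled signal at 8 Gy was -0.21 (PBS i.p.) and -0.37 (PBS i.g.) in the vehicles and -0.33, -0.29 and -0.38 after amifostine, CBLB502 and nilestriol. The 0 Gy counterparts in the same order were -2.12, -2.30, -2.61, -2.37 and -3.01. All 8 Gy values lay above all 0 Gy values, and at 8 Gy the drug and vehicle values overlapped (drug mean minus vehicle mean -0.04 ± 0.08 SE).

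None of the 385 miRNAs detected on at least 2 of the 5 arrays passed the test of the mean of 3 drugs against the mean of 2 vehicles. That is 0% at an adjusted p under 0.05 (limma, Benjamini-Hochberg), with a smallest adjusted p of 0.235, and 29 miRNAs (7.53%) had an unadjusted p under 0.05. The number of arrays limits the precision, because for 3 arrays against 2 an exact two-sided permutation p, taken as the doubled one-sided p, cannot go below 0.2. The 3 drugs are not replicates of 1 treatment, so the standard errors hold the spread between drugs and between vehicle routes.

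By direction alone, 74 of 385 miRNAs (19.2%) had all 3 drug values above both vehicle values, and 31 (8.05%) had all 3 below. With the nearest drug array at least 1.5-fold from the nearest vehicle array, 11 (2.86%) lay higher and 0 (0%) lower. These splits moved with the scaling: dividing by the 75th percentile over all miRNAs shifted the median difference from 0.02 to -0.23 and gave 25 higher and 156 lower, and no scaling shifted it to -0.18 and gave 23 higher and 128 lower. Leaving out an array, which makes the condition easier to meet, gave up to 153 higher (without PBS i.p.; 116 without amifostine) and up to 130 lower (without PBS i.g.; 67 without amifostine and 69 without nilestriol). The median absolute difference between drug mean and vehicle mean was 0.22 on the log2 scale, and that between the 2 vehicle arrays was also 0.22. The first is between means of 3 and 2 arrays and the second between single arrays. Averaging lowers array noise, so the equal values do not show that the drug difference is no larger than the vehicle spread. CBLB502 stood farthest from the vehicle mean, with a median absolute difference of 0.40, against 0.18 for amifostine and 0.18 for nilestriol.

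The arrays lay on different slides, which bears on each of these counts. Slide 1 held both vehicle arrays and CBLB502, and slide 2 held amifostine and nilestriol, so the latter drugs and the slide cannot be told apart. The 0 Gy arrays were split over the slides in the same way. CBLB502 against the vehicles is a comparison within slide 1, where 164 miRNAs lay above both vehicles and 128 below, with 73 and 17 of them past the 1.5-fold gap. A single drug array meets these conditions more easily than all 3 drug arrays together, so these counts cannot be set beside those for the 3 drugs.

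**Figure D1:**
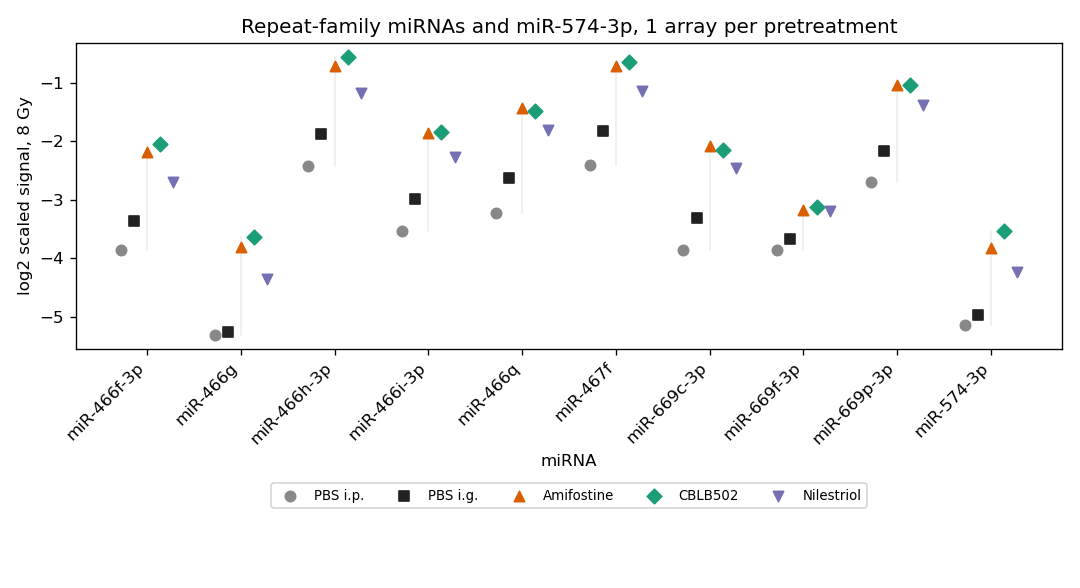
Log2 scaled signal at 8 Gy (y axis) of the 9 repeat-family miRNAs and miR-574-3p (x axis), 1 point per array and no error bars because each pretreatment had 1 array. In each column the 3 drug points lie above both PBS points, with nilestriol the lowest of the 3.

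The CA-repeat miRNAs were the largest group past the gap. Of the 11 miRNAs past it, 8 were repeat-family members, and a ninth member, miR-669f-3p, lay above both vehicles by less than 1.5-fold. Their drug mean was 1.52-fold to 2.55-fold the vehicle mean, with an adjusted p of 0.235 for each (limma). None passed the test. With normexp background correction the differences were smaller, with a median over the 9 of 0.56 in place of 1.31 on the log2 scale. MiR-466g went from 1.35 to 0.23, miR-669c-3p from 1.35 to 0.53 and miR-466f-3p from 1.31 to 0.51. This setting also added a constant of 50 intensity units to every spot, which by itself shrinks log2 differences of dim signals. The share of the constant in the smaller differences was not tested.

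MiR-466q had a log2 scaled signal of -3.22 (PBS i.p.) and -2.62 (PBS i.g.) in the vehicles. The drug arrays read -1.43 for amifostine, -1.48 for CBLB502 and -1.80 for nilestriol. The drug mean was 1.35 ± 0.24 (SE) above the vehicle mean, 2.55-fold, and the nearest drug and vehicle arrays were 0.82 apart. Before scaling its intensity was 29.2 and 56.6 in the vehicles and 86.3, 98.2 and 80.7 in the drugs, so the groups were also apart on the raw scale.

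MiR-669c-3p had values of -3.85 and -3.31 in the vehicles and of -2.09, -2.15 and -2.46 with amifostine, CBLB502 and nilestriol. Its difference was 1.35 ± 0.22. The lower vehicle value was that of PBS i.p., as it was for all 9 members.

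MiR-466h-3p (-2.42 and -1.88 in the vehicles; -0.71, -0.56 and -1.18 in the drugs) differed by 1.34 ± 0.28. MiR-466f-3p (-3.86 and -3.37; -2.19, -2.04 and -2.70) differed by 1.31 ± 0.28. In both, CBLB502 gave the highest value and nilestriol the lowest of the 3 drugs.

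MiR-467f (-2.41 and -1.82; -0.72, -0.64 and -1.14) differed by 1.28 ± 0.26, and miR-466i-3p (-3.54 and -2.99; -1.87, -1.84 and -2.26) by 1.28 ± 0.24. MiR-669p-3p (-2.69 and -2.17; -1.04, -1.04 and -1.39) differed by 1.28 ± 0.22. Drug and vehicle values did not overlap in any of these, and the separation between nearest arrays was 0.68 to 0.79.

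MiR-669f-3p was the member closest to the vehicles, at -3.86 and -3.67 in them and -3.18, -3.13 and -3.20 in the drugs. Its difference was 0.60 ± 0.09, and the gap of 0.48 lay below the 1.5-fold limit. Here the 3 drugs lay close together, with nilestriol the lowest.

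MiR-466g and miR-574-3p were detected on all 3 drug arrays and on 1 of 2 vehicle arrays, and are named after their values were seen. MiR-466g was at -5.31 (the floor of the scale) and -5.26 in the vehicles, and at -3.80, -3.64 and -4.36 with amifostine, CBLB502 and nilestriol. MiR-574-3p was at -5.15 and -4.98 in the vehicles and at -3.83, -3.54 and -4.24 in the drugs, a difference of 1.19 ± 0.24. Both were near the limit of detection in the vehicles, so their fold differences rest on dim signals.

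The members are not independent measurements. Probe sequences of the 9 shared unbroken stretches of 8 to 17 bases, with a median of 10 over the 36 pairs, so a miRNA of 1 name may bind the probes of another and the separate levels are uncertain. Of the 24 probes that read these 9 miRNAs, 22 had all 3 drug arrays above both vehicles in unscaled intensity. These probes make up the values by which the 9 were picked, so that count is a description and not separate evidence. The motif TGTGTGT, chosen after the values were seen and searched on the strand of the longest probe of each miRNA (matches may overlap in longer TG runs), was on 10 of 385 tested miRNAs (2.6%). It was on 9 of the 74 higher miRNAs (12.2%), on 8 of the 11 past the gap (72.7%) and on 0 of the 31 lower. The tenth, miR-467a-3p, had values of -4.09 and -3.98 in the vehicles and -4.34, -4.89 and -4.00 in the drugs, which overlap.

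Not all miRNAs with these names shared the direction. The array held 61 miRNAs of the miR-297, miR-466, miR-467 and miR-669 names, and 15 were tested. Besides the 9 above, miR-467a-5p, miR-467b-5p and miR-669n lay below both vehicles on all 3 drug arrays (drug mean minus vehicle mean -0.30 ± 0.12, -0.41 ± 0.30 and -0.39 ± 0.19), and miR-466b-3p, miR-466i-5p and miR-467a-3p overlapped. MiR-466i-5p, the other strand of the miR-466i hairpin, was at 2.60 and 2.56 in the vehicles and at 2.44, 3.26 and 2.42 in the drugs. Over the 15 the median difference was 1.28, against 0.02 over all tested miRNAs, and by drug it was 1.39 for amifostine, 1.39 for CBLB502 and 0.91 for nilestriol.

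**Figure D2:**
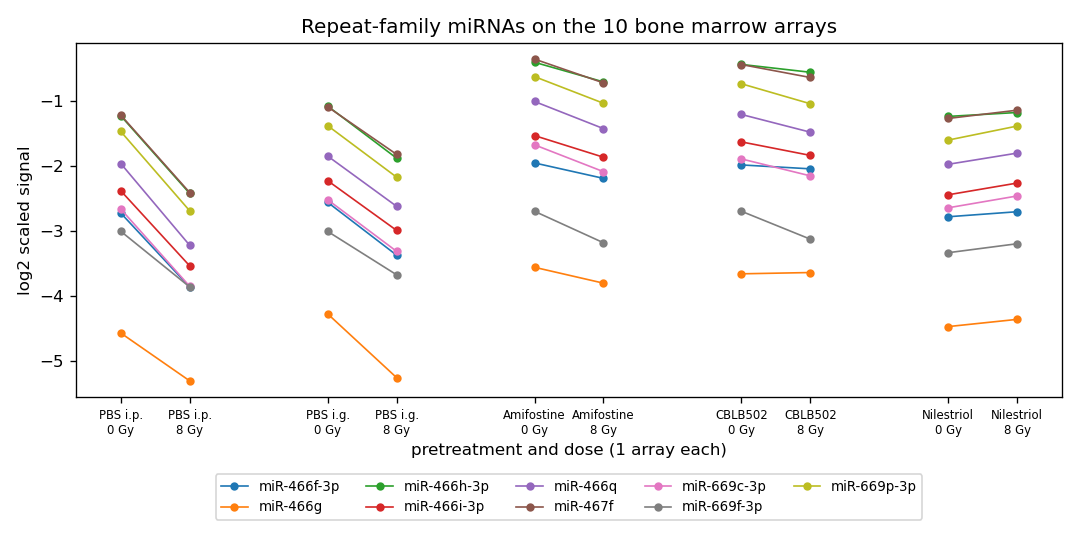
Log2 scaled signal (y axis) of the 9 repeat-family miRNAs on the 10 bone marrow arrays, with each line joining the 0 Gy and 8 Gy array of 1 pretreatment (x axis, 1 array per point). Every line slopes down in both PBS arms, more steeply with PBS i.p. except for miR-466g, and every nilestriol line slopes slightly up.

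The 0 Gy arrays give the levels of these miRNAs without irradiation. At 0 Gy miR-466q was at -1.96 and -1.85 in the vehicles, and the drugs read -1.01 (amifostine), -1.21 (CBLB502) and -1.97 (nilestriol). Amifostine and CBLB502 were thus above both vehicles without irradiation too, while nilestriol was not. For the 9 members the vehicle mean at 8 Gy minus that at 0 Gy was -1.02 to -0.76, and the drug mean at 8 Gy minus that at 0 Gy was -0.26 to -0.04. The 9 were picked by their 8 Gy values, so a larger fall in the vehicles than in the drugs is partly built in.

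The difference between doses was tested as an interaction of drug class and dose on the 10 bone marrow arrays. For the 9 members the drug minus vehicle difference was larger at 8 Gy than at 0 Gy by 0.50 to 0.90, with an adjusted p of 0.700 for each (limma). Because the 9 were picked for lying higher on all 3 drug arrays at 8 Gy, a larger difference at that dose is partly built in. None of 385 miRNAs passed (0%), with a smallest adjusted p of 0.700, and 14 (3.64%) had an unadjusted p under 0.05. MiR-574-3p had an interaction of 0.95 ± 0.40.

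Within slide 1, CBLB502 was above the vehicle mean by 0.64 to 1.64 for the 9 members; the upper value is that of miR-466g, whose vehicle values were at or near the floor. On slide 2, amifostine was above it by 0.59 to 1.496 and nilestriol by 0.57 to 1.12. Set beside the vehicle of its own route, nilestriol was above PBS i.g. by 0.48 to 0.90, amifostine above PBS i.p. by 0.68 to 1.80 and CBLB502 above PBS i.p. by 0.74 to 1.87. These 9 were picked for lying higher on all 3 drug arrays, so their direction under other settings is a description: without scaling 8 of them lay higher on all 3, and with the scanner software totals 7. Under normexp background correction with its added constant, and with the percentile taken over all miRNAs, 0 of the 9 passed the 1.5-fold gap.

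The test itself turned on how low values were treated. With a small offset added in place of the floor, 8 miRNAs passed, all higher (adjusted p 0.0101 to 0.0211, limma): miR-669c-3p, miR-466q, miR-669p-3p, miR-466i-3p, miR-466h-3p, miR-467f, miR-466f-3p and miR-466g. Leaving out PBS i.p. or PBS i.g. took the count past the gap from 11 to 17 in both cases, and leaving out nilestriol took it to 26; with fewer arrays the condition is easier to meet.

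The other higher miRNAs named by gap were miR-3110-3p, miR-5118, miR-6388 and miR-681. MiR-3110-3p was at -3.24 and -3.16 in the vehicles and at -2.31, -1.62 and -2.53 with amifostine, CBLB502 and nilestriol, a difference of 1.05 ± 0.31 (adjusted p = 0.488, limma). MiR-5118 was at -4.60 and -4.61 in the vehicles and at -3.73, -3.19 and -3.98 in the drugs, a difference of 0.97 ± 0.27. In both miRNAs CBLB502 was the highest.

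MiR-6388 (0.77 ± 0.19) and miR-681 (0.85 ± 0.34) had gaps of 0.57 and 0.47, below the 1.5-fold limit. MiR-5118, with a gap of 0.62, was the last inside it and miR-6388 the first outside. With the scanner software totals the differences of miR-5118 and miR-681 turned to -0.38 and -0.22. MiR-291b-5p, of an embryonic stem cell cluster, was the only miRNA detected on all 3 drug arrays and neither vehicle array: it was at the floor in both vehicles and with CBLB502, at -4.94 and -5.19 with the other drugs (amifostine and nilestriol). No miRNA was detected on both vehicle arrays and on 0 drug arrays.

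**Figure D3:**
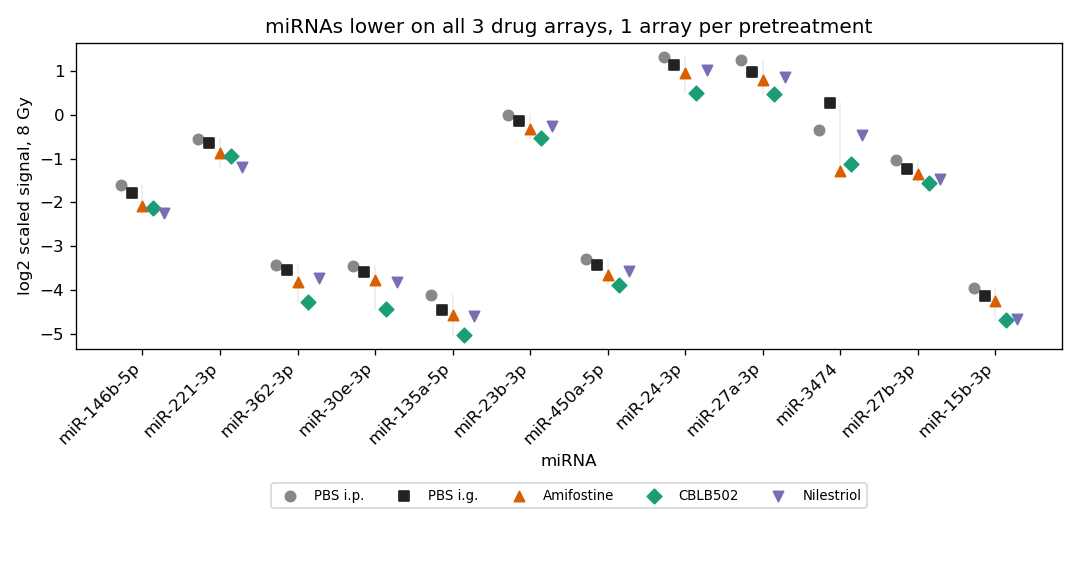
Log2 scaled signal at 8 Gy (y axis) of the 12 miRNAs (x axis) with the largest gap below the vehicles among those detected on all 5 arrays, 1 point per array. The 3 drug points lie below both PBS points in each column, and CBLB502 is the lowest in 9 of them, nilestriol in miR-146b-5p and miR-221-3p, and amifostine in miR-3474.

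The miRNAs lower on all 3 drug arrays differed less, and included the miR-23, miR-24 and miR-27 clusters, miR-146b-5p and miR-221-3p. Mature sequences of these are shown because they name the seed families involved, with the seed in capitals (RefSeq, GRCm38.p6):
miR-27a-3p: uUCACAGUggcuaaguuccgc
miR-27b-3p: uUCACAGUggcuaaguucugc
miR-24-3p: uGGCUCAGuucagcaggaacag
miR-146b-5p: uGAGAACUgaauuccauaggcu
miR-221-3p: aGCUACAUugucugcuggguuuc

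MiR-27a-3p and miR-27b-3p have the same seed and come from paralogous clusters. MiR-27a is at chr8:84208727-84208747 and a copy of miR-24 at chr8:84208875-84208896, both on the plus strand and in no listed gene span. MiR-27b is at chr13:63300760-63300780 and the other miR-24 copy at chr13:63301251-63301272, both on the plus strand within the span of Aopep. MiR-146b is at chr19:46342790-46342811 on the plus strand and miR-221 at chrX:19146307-19146329 on the minus strand, in no listed gene span.

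MiR-24-3p, abundant in myeloid cells, was at 1.32 and 1.15 in the vehicles (PBS i.p. and i.g.), and at 0.95 with amifostine, 0.49 with CBLB502 and 1.03 with nilestriol. Its difference was -0.41 ± 0.20. MiR-27a-3p was at 1.24 and 0.97 in the vehicles and at 0.80, 0.47 and 0.86 in the drugs, a difference of -0.40 ± 0.17. CBLB502 was the lowest and nilestriol the closest to the vehicles in both.

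MiR-23a-3p, of the same cluster, was at 2.27 and 2.15 in the vehicles and at 1.98, 1.59 and 2.10 in the drugs (-0.32 ± 0.19). The paralogs miR-27b-3p (-0.32 ± 0.11) and miR-23b-3p (-0.30 ± 0.12) were lower by similar amounts. These 5 strands lay below both vehicles on each drug array, as did 8.05% of all tested miRNAs, and none passed the test. Among the minor strands, named after their values were seen, miR-24-2-5p was also lower (-0.44 ± 0.18; detected on 1 of 3 drug arrays), while miR-23a-5p lay the other way, at the floor in both vehicles and at -5.28, -4.93 and -5.27 in the drugs. Its difference of 0.15 ± 0.14 turned to -0.00152 with scaling over all miRNAs and to -0.020 with quantile normalization. Of the 12 lower miRNAs plotted, 10 were below both vehicles on all 3 drug arrays with quantile normalization, 10 in the authors' value table, 9 with the scanner software totals and 7 with normexp.

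MiR-146b-5p, which dampens Toll-like receptor signalling, was at -1.61 and -1.79 in the vehicles and at -2.08, -2.13 and -2.24 with amifostine, CBLB502 and nilestriol. Its difference was -0.45 ± 0.10 (adjusted p = 0.235, limma), and its gap of 0.29 was the largest in this direction. MiR-146a-5p, with the same seed, overlapped between the groups (-0.02 ± 0.22).

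MiR-221-3p, which represses Kit in blood progenitors, was at -0.56 and -0.64 in the vehicles and at -0.87, -0.94 and -1.19 in the drugs (-0.40 ± 0.13, adjusted p = 0.496, limma). Its seed partner miR-222-3p overlapped (-0.17 ± 0.24). In both seed pairs 1 member stood below the vehicles on every drug array and the other did not; that difference between members was not tested.

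MiR-362-3p (-0.44), miR-30e-3p (-0.49), miR-135a-5p (-0.45), miR-450a-5p (-0.33) and miR-15b-3p (-0.49) were lower by less than 1.5-fold. MiR-3474 was at -0.34 and 0.26 in the vehicles and at -1.28, -1.13 and -0.45 in the drugs, a difference of -0.92 ± 0.35. At 0 Gy it ran the other way, by 1.04, and nilestriol alone was high there, at 0.46 against -2.86 to -2.09 on the other 4 arrays.

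**Figure D4:**
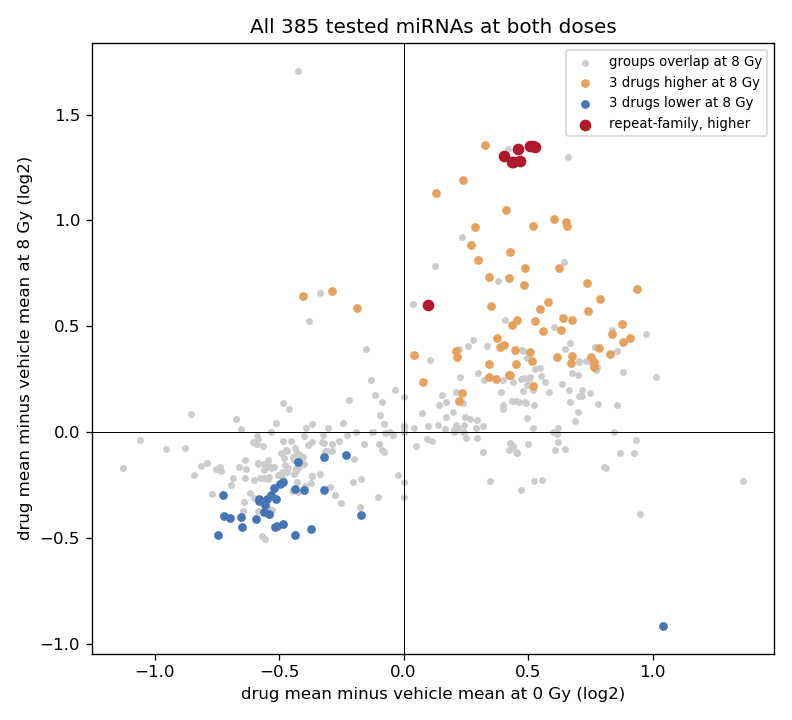
Drug mean minus vehicle mean on the log2 scale at 0 Gy (x axis) and at 8 Gy (y axis) for the 385 tested miRNAs, 1 point per miRNA. The 9 repeat-family miRNAs that were higher on all 3 drug arrays (dark red) stand at 0.60 to 1.35 on the y axis and at 0.10 to 0.53 on the x axis, the 6 other tested miRNAs of these names lie at -0.41 to 0.13 on the y axis, and most miRNAs lower at 8 Gy (blue) are also lower at 0 Gy.

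Most of the lower miRNAs were lower without irradiation too. Of the 31 lower miRNAs, 26 were below both vehicles on all 3 drug arrays at 0 Gy too, 5 overlapped there and 0 ran the opposite way. Amifostine and nilestriol lay on another slide than the vehicles at both doses, so for these drugs a direction shared by the doses cannot be told apart from slide. Of the 12 named, 11 were lower at 0 Gy without overlap, miR-3474 being the exception. MiR-24-3p differed by -0.59 at 0 Gy and miR-221-3p by -0.65, more than at 8 Gy. Of the 74 higher miRNAs, 36 were also higher at 0 Gy, 38 overlapped and 0 ran the opposite way. At 0 Gy the shared direction itself was more common, with 110 miRNAs higher (28.6%) and 125 lower (32.5%).

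Higher and lower miRNAs differed in level on the irradiated vehicle arrays and in base composition. Median vehicle level (mean log2 scaled signal) was -3.93 for the 74 higher, -1.70 for the 31 lower and -2.72 for all tested. The median GC content of their probes was 60.2%, 45.8% and 54.8%. Across the 385 miRNAs, which share arrays and are not independent, the drug minus vehicle difference had a Spearman correlation of 0.35 with probe GC. Its Spearman correlation with vehicle level was -0.37. The vehicle level is itself subtracted to form the difference. A negative correlation, and a lower vehicle level for the higher miRNAs, are therefore partly built in. After a GC trend was removed from each array, 43 were higher and 86 lower.

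**Figure D5:**
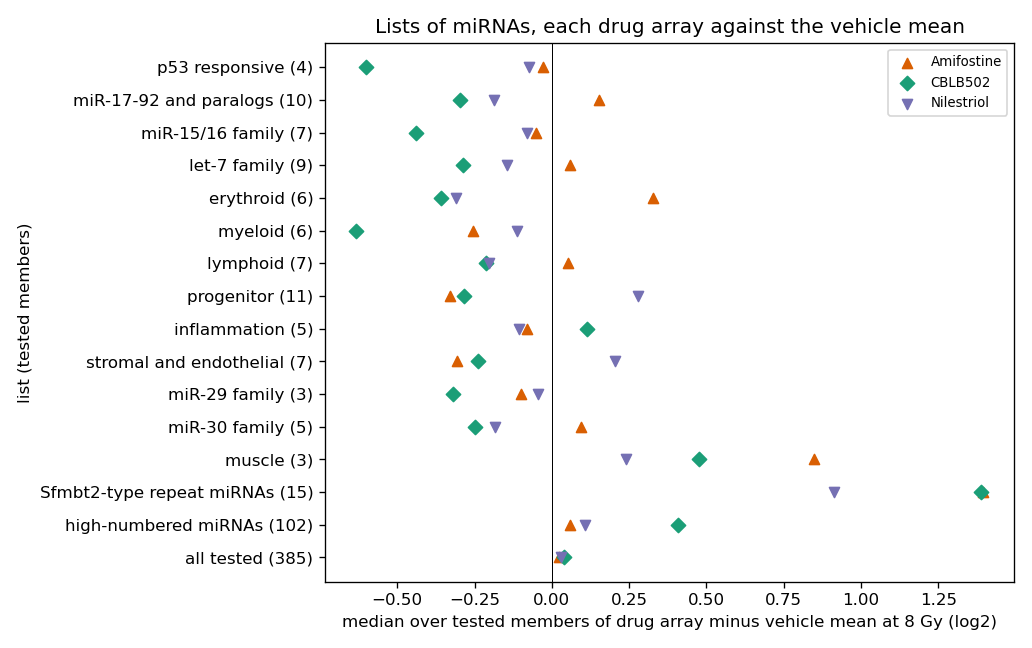
Median over the tested members of each list (y axis, number tested in brackets) of the drug array minus the vehicle mean at 8 Gy on the log2 scale (x axis), 1 point per drug. The list labelled Sfmbt2-type holds miRNAs of the miR-297, miR-466, miR-467 and miR-669 names, grouped by name and not by position in Sfmbt2. It lies at 0.91 to 1.39 for the 3 drugs, and 11 of the other lists have a CBLB502 median below 0.

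Lists of miRNAs that mark blood lineages, growth control and other cell types gave few shared directions, and 0 members of any list passed the test. The median difference of all tested miRNAs was 0.02. Of all tested miRNAs, 8.05% were lower and 19.2% higher on all 3 drug arrays, the shares to set beside the list counts. Of 6 tested myeloid miRNAs, 3 were lower on all 3 drug arrays (miR-23a-3p, miR-24-3p and miR-27a-3p) with a list median of -0.35. These 3 all have a copy in the same cluster on chromosome 8, so they are not separate myeloid markers. MiR-223-3p, abundant in granulocytes, was at 6.32 and 6.26 in the vehicles and at 5.97, 5.50 and 6.28 in the drugs, and overlapped. The summed myeloid signal, relative to each array's 75th percentile, was 92.4 to 99.7 in the vehicles and 59.4 to 93.7 in the drugs.

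Of 6 erythroid miRNAs, 0 had a shared direction (median -0.13), and their medians by drug ran from 0.33 for amifostine to -0.36 for CBLB502. Their summed signal overlapped, at 224 to 284 in the vehicles and 186 to 312 in the drugs. Of 7 lymphoid miRNAs, miR-181b-5p alone was lower (-0.24 ± 0.13; list median -0.17), with PBS i.g. and amifostine both at -2.22. Of 11 progenitor miRNAs, miR-221-3p alone was lower (median -0.17).

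Of 5 inflammation miRNAs, miR-146b-5p and miR-21a-5p (-0.11 ± 0.08) were lower, against 8.05% of all tested miRNAs, and the list median was -0.02. MiR-21a-5p was at 3.39 and 3.25 in the vehicles and at 3.24, 3.18 and 3.22 in the drugs, so its groups were 0.01 apart. Of 4 tested p53-responsive miRNAs 0 had a shared direction, although all 4 drug means were below the vehicle mean (median -0.23).

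The cell-cycle families were also without a shared direction. A shared direction was seen in 0 of 10 members of miR-17-92 and its paralogs (median -0.14) and 0 of 7 of the miR-15/16 family (-0.17). It was seen in 0 of 9 of let-7 (-0.12) and 0 of 5 of the miR-30 family (-0.15). Of 3 miR-29 members, miR-29a-3p was lower (-0.14 ± 0.10). For each of these lists most members were slightly lower in the drug mean at 8 Gy. At 0 Gy all 3 drug arrays lay below both vehicles for 8 of 10 miR-17-92 and paralog members and 6 of 7 of miR-15/16. They did so for 9 of 9 of let-7, 5 of 5 of miR-30 and 3 of 3 of miR-29, against 32.5% of all tested. For amifostine and nilestriol that direction cannot be told apart from slide.

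Markers of non-blood cells had no common direction. Of 7 stromal and endothelial miRNAs, miR-214-3p was higher, at -5.03 and -4.84 in the vehicles and at -4.47, -4.19 and -4.15 in the drugs (0.67 ± 0.14, adjusted p = 0.235, limma), and the other 6 overlapped (list median -0.17). Of 3 tested muscle miRNAs, miR-1a-3p was higher (0.64 ± 0.34), and miR-133a-3p and miR-133b-3p overlapped (0.39 ± 0.35 and 0.53 ± 0.34). The summed muscle signal was 0.160 to 0.296 in the vehicles and 0.282 to 0.400 in the drugs, and its part in the results was not tested. With the scanner software totals miR-1a-3p turned to -1.84. The liver miRNA and the 2 neuronal miRNAs on the lists were detected on too few arrays to be tested.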

How the data were processed

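MiRNA levels in 10 bone marrow pools were read from the deposited scanner files, which hold the authors' spot intensity per the file headers (Agilent Feature Extraction, version 10.7.1.1), less a fitted background surface. The authors' deposited value table, on a log2 scale, was used as an alternative. Outlier spots (4.45 to 5.22% per 8 Gy array) were left out, spots averaged per probe and probes per miRNA, and signals scaled to the 75th percentile of those 296 miRNAs that all 10 arrays detected. Values under a floor (log2 -5.31; 8.21% of the tested 8 Gy values) were raised to it before taking log2. limma 3.58.1 in R 4.3.3 fitted drugs against vehicles on the 5 arrays at 8 Gy, and drug class by dose on 10 arrays. The threshold was a two-sided Benjamini-Hochberg adjusted p of 0.05. Both fits were run on simulated data with independent noise and the same shift for every drug. That check does not cover differences between drugs, routes or slides. Each pool is 1 array and no arm was repeated at a dose, so the p-values rest on the spread between different drugs, vehicle routes and slides. Spread between replicate pools was not measured. The text names, of miRNAs detected on all 5 arrays, the 12 per direction with the largest gap, those detected on the arrays of 1 class only, and list members; exceptions are marked. Members and lists were chosen with earlier results of these data known. Alternatives covered scaling, background (normexp with an added constant of 50 intensity units), floor, detection filter, outlier spots, totals, the authors' table, GC, slide, route and each array left out. The hypothalamus arrays were not used here.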

Additional observations from a re-analysis of the deposited data

How the results depend on the processing

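The test of drugs against vehicles passed 0 miRNAs under each alternative run except an offset in place of the floor, with 8, all higher. The interaction passed 0 except in the authors' value table, with 1. Shared direction was the most sensitive: from 74 higher and 31 lower, the counts were 25 and 156 with scaling over all miRNAs, 39 and 61 with quantile normalization, 23 and 128 without scaling, 38 and 14 with normexp, 34 and 69 in the authors' table, 43 and 86 with the GC trend removed and 164 and 128 within slide 1. Leaving out 1 array gave 85 to 153 higher and 37 to 130 lower. Past the 1.5-fold gap, 11 higher became 0 with scaling over all miRNAs, 6 with quantile normalization, 1 without scaling, 0 with normexp, 6 with the offset, 5 with scanner software totals, 5 in the authors' table, 6 with the GC trend removed and 73 within slide 1, and 12 to 26 without 1 array. For 0 lower past the gap these were 1 with scaling over all miRNAs, 7 in the authors' table and 17 within slide 1, and 0 to 1 without 1 array. Except where fewer arrays enter by construction, the cause was not tested.

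Of the named miRNAs, the difference changed sign in 26 cases. With scanner software totals miR-5118 was -0.38, miR-681 -0.22, miR-1a-3p -1.84, miR-133a-3p -0.068, miR-133b-3p -1.72, miR-467b-5p 0.056 and miR-146a-5p 0.015; with normexp miR-467b-5p was 0.011 and miR-146a-5p 0.015. MiR-466i-5p was -0.16 with scaling over all miRNAs and -0.11 without scaling, miR-34a-5p 0.045 with quantile normalization and 0.018 in the authors' table, miR-133a-3p -0.012 in the authors' table and miR-291b-5p -0.073 with the GC trend removed. MiR-23a-5p was -0.00152 with scaling over all miRNAs and -0.020 with quantile normalization. MiR-146a-5p was 0.16 with slide as a block and within slide 1. With 1 array left out, miR-34a-5p ran from -0.12 to 0.034 and miR-222-3p from -0.37 to 0.043 (highest without PBS i.p.), miR-133a-3p from -0.034 (without PBS i.g.) to 0.82, miR-466b-3p from -0.38 to 0.038 and miR-466i-5p from -0.15 to 0.27 (turned without CBLB502), and miR-146a-5p from -0.19 to 0.15 (turned without PBS i.p. or amifostine). The labels give no replicate numbers to pair by, but they give routes. Fits with the route or the slide as a block passed 0 miRNAs each. Slide 2 held no vehicle array, so with the slide as a block the drug difference is that of CBLB502 against the vehicles alone. That fit cannot adjust amifostine or nilestriol for slide.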
